A study of Homo sapiens with 4 samples.

Results

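The annexins described here were 8 genes, ANXA1, ANXA2, ANXA3, ANXA4, ANXA5, ANXA6, ANXA7 and ANXA11, taken by symbol from 19577 gene rows of single-cell transcript counts. They were chosen by their measured levels, by the opposite behaviour that was noted for ANXA5 and ANXA1, and by their relation to markers of the epithelial-to-mesenchymal transition, so these values are given as a description. A further 8 annexin genes and pseudogenes had a row, and each of them had a mean over the 4 plates below 0.01 counts per 10000. The cells were MCF10A, an untransformed human mammary epithelial line, here expressing a GFP-tagged histone. In every group, 10000 cells were seeded as a circular patch on fibronectin and grown for 6 days in medium with horse serum, insulin, cholera toxin, hydrocortisone (500 ng/ml) and EGF (20 ng/ml). Patches were phototagged with photoactivatable dye (JF646 and JF549) either at low resolution, in concentric rings of 1000 to 1500 μm, or at high resolution, with bands of 250 μm at the edge, and 1 plate of 384 wells was sorted from each of 2 patches per group. All patches came from 1 cell line, and which ring or band a well came from was not analysed here. The cell filter kept 1146 of 1536 wells, with a median depth of 30118 to 40893 counts per cell and 11709628 to 14992348 counts in all per plate. The cells carried the markers of their labelled type: 10 of 11 basal mammary epithelial markers were detected in 20% or more of the cells of every plate, TP63 being the exception, with a summed level of 47.6 to 69.3 counts per 10000. Summed levels of 6 luminal markers were 2.88 to 9.23, of 6 measured fibroblast markers 0.0728 to 0.148, of 5 endothelial markers 0.187 to 0.255 and of 6 measured blood markers 0.267 to 0.577 counts per 10000. By the same 20% rule, the luminal markers GATA3 and AREG, the endothelial marker PECAM1 and the blood marker CD14 were detected in every plate. The fibroblast marker COL1A1 was detected by this rule in both high-resolution plates.

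Annexins are cytosolic proteins that bind negatively charged phospholipids when calcium rises, through a conserved core of repeated domains, and each has its own N-terminal tail that binds partners such as S100 proteins. They organise membrane domains, take part in vesicle traffic and help to seal torn plasma membrane. ANXA1 is a glucocorticoid-induced anti-inflammatory protein that acts on formyl peptide receptors, ANXA2 pairs with S100A10 and binds plasminogen activators at the cell surface, and ANXA5 binds phosphatidylserine and is widely used to stain dying cells. The epithelial-to-mesenchymal transition (EMT), which the patches were set up to follow, is the loss of cell-cell adhesion and the gain of motility by epithelial cells.

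The 250 bases before the transcription start are shown for the annexin pair that was higher with the EMT score (ANXA5 and ANXA2), for the annexin that was lower with it (ANXA11) and for ANXA1, which was chosen for comparison with ANXA5. Sequences are from RefSeq (GRCh38.p14), each 5′ to 3′ on the strand of its gene, and capitals mark the motifs searched on both strands. ANXA5 lies at chr4:121696981-121697230, minus strand, ANXA2 at chr15:60397987-60398236, minus strand, ANXA11 at chr10:80205538-80205787, minus strand, the listed start nearest to its GENCODE 5′ end of 3 listed, and ANXA1 at chr9:73151615-73151864, plus strand. The ANXA2 start listed by RefSeq lies inside the longer GENCODE gene.
ANXA5: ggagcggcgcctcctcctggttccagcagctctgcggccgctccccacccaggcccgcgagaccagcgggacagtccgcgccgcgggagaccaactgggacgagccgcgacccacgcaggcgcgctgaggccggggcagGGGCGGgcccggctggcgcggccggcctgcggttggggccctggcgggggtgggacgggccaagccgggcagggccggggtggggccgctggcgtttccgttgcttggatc
ANXA2: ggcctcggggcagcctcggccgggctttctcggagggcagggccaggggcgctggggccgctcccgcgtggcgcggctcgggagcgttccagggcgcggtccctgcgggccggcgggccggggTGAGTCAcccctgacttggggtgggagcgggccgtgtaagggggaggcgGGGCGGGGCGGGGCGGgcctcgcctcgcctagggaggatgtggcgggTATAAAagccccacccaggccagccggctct
ANXA11: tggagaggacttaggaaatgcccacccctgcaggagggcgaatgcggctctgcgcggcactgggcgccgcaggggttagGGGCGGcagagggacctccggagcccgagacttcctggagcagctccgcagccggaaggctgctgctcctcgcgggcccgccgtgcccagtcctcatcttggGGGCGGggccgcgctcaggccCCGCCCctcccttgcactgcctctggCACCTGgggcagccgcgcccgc
ANXA1: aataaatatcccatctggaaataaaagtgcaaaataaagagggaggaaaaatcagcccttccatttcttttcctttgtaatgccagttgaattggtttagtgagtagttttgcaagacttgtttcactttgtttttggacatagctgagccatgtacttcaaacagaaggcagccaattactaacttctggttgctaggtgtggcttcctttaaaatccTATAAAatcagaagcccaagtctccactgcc
The letters searched were the Snail-type E-box CAGGTG or CACCTG, the AP-1 site TGANTCA, the GC box GGGCGG or CCGCCC, the TATA box TATAAA or TTTATA and the glucocorticoid receptor half-site AGAACA or TGTTCT. Of 35116 RefSeq starts with a stretch of this length, 17.5% held the E-box letters, 6.57% the AP-1 letters, 42.6% the GC box, 10.7% the TATA box and 12.4% the half-site. The ANXA2 stretch held a TATA box at 31 to 26 bases before the start, 1 AP-1 match and 3 GC boxes that each share a base with the next. The ANXA1 stretch held a TATA box at the same distance, 31 to 26 bases, and no other match, with 38.4% G or C against 78% for ANXA2 and 78.8% for ANXA5. ANXA5 had 1 GC box and no other match, and ANXA11 had 3 GC boxes and 1 E-box match, at 22 to 17 bases before the start. Among all 8 members the E-box letters were also found before ANXA3 and ANXA7, and the half-site before none of the 8. These matches are descriptions of letters and not of binding.

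The genes themselves lie on 6 chromosomes (GENCODE release 29, GRCh38), all of them protein coding: ANXA5 at chr4:121667955-121697113 and ANXA3 at chr4:78551519-78610451 share chromosome 4, and ANXA7 at chr10:73375101-73414076 and ANXA11 at chr10:80150889-80205572 share chromosome 10. ANXA1 is at chr9:73151757-73170393, ANXA2 at chr15:60347134-60402883, ANXA4 at chr2:69644425-69827100 and ANXA6 at chr5:151100712-151157882. Counts were summed over whole genes, so exons and transcript forms were not separated.

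ANXA2 was the most abundant annexin, followed by ANXA5 and ANXA1, and these 3 genes held 55.8%, 21.1% and 11.9% of the annexin counts. Levels are given as the mean over cells of counts per 10000 counts of the cell. Each UMI stands for 1 transcript end, so no length scaling was applied when genes were compared. ANXA2 averaged 22.3 and 22.3 counts per 10000 in low-resolution replicates 1 and 2 and 29.7 and 28.1 in high-resolution replicates 1 and 2, or 25.6 ± 3.84 (SD, n = 4 plates). ANXA5 averaged 7.41, 7.05, 12.6 and 11.6 in the same order (9.66 ± 2.84). For both genes the low-resolution plates lay below the high-resolution plates without overlap. The share of all genes whose plates separated in this way is not given here. ANXA1 averaged 5.81 and 6.23 at low resolution and 4.30 and 5.54 at high resolution (5.47 ± 0.831), with the lowest value in high-resolution replicate 1.

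The other 5 members were lower. ANXA11, which tethers RNA granules to lysosomes, averaged 2.26, 2.46, 2.10 and 1.87 counts per 10000 (2.17 ± 0.247), with both high-resolution plates at the lower end. ANXA3, first known as a placental anticoagulant, averaged 1.04, 1.04, 1.64 and 1.73 (1.36 ± 0.375), again with both high-resolution plates above both low-resolution plates. ANXA4, found in epithelia, and ANXA7, which binds sorcin, averaged 0.835 ± 0.0802 and 0.749 ± 0.0249. ANXA6, which links membranes to actin, averaged 0.0223 ± 0.0138 and had a UMI in 9, 13, 30 and 26 cells of the 4 plates, or 3.09% (95% exact interval 1.42% to 5.79%) to 10.3% (7.06% to 14.4%) of cells. Intervals of this kind cover counting error only. In the order of levels, the plate ranges of neighbours did not overlap except for ANXA4 and ANXA7, although ANXA4 was the higher of the pair in 4 of 4 plates. The 8 genes together came to 40.4 and 40.6 counts per 10000 at low resolution and 51.9 and 50.5 at high resolution. Reads of ANXA2 pseudogenes could be shared with ANXA2, but the 3 pseudogene rows averaged at most 0.00656 counts per 10000.

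**Figure D1:**
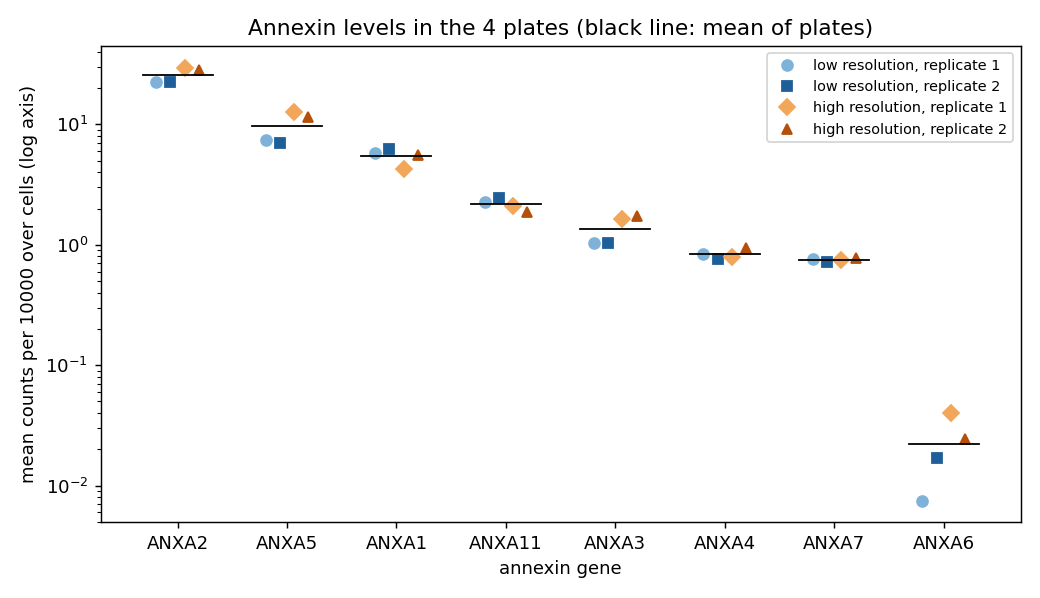
Mean counts per 10000 over the cells of a plate (log axis) for the 8 annexin genes, with 1 point per plate and the mean of the 4 plates as a black line. ANXA2 (25.6), ANXA5 (9.66) and ANXA1 (5.47) stand highest, ANXA6 (0.0223) lowest, and the high-resolution plates lie above the low-resolution plates for ANXA2, ANXA5 and ANXA3.

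The spread over the cells of a plate was given by the ratio of variance to mean, which tends to be larger for genes of higher level. With every cell thinned to 10000 UMIs, which left out 2 to 7 shallower cells per plate, the variance of the UMI count was 4.50 ± 0.317 times its mean for ANXA2, 3.90 ± 0.240 times for ANXA5, 2.67 ± 0.599 times for ANXA1 and 2.00 ± 0.108 times for ANXA3 (SD, n = 4 plates), where a value of 1 is what counting alone gives. ANXA11 had a ratio of 1.61 ± 0.184, while ANXA4, ANXA7 and ANXA6 lay at 1.17, 1.12 and 1.07. Set against genes of similar level in the same plate, the order was another. The ratio of ANXA3 exceeded that of 88.1% to 92.7% of such genes and the ratio of ANXA5 that of 85% to 88.1%. For ANXA1 the share was 64.8% to 85.3%, and for ANXA2 66.7% to 72.2%, from 12 to 18 genes per plate. In low-resolution replicate 1, ANXA5 ran from 2.77 counts per 10000, below which 10% of cells lay, to 14.4, above which 10% lay, and in high-resolution replicate 1 from 4.47 to 22.3.

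ANXA5 was among the genes that followed the EMT score most closely. The score is the enrichment of a mesenchymal gene list (100 genes in the low- and 97 in the high-resolution experiment) minus that of an epithelial list (64 genes), and no annexin is in either list. Since the annexins were chosen with their relation to this score known, the values are a description. Across the cells of a plate, the Spearman rho of ANXA5 with the score was 0.702 and 0.738 at low resolution and 0.721 and 0.731 at high resolution. Its mean of 0.723 ± 0.0155 (SD, n = 4 plates) ranked high among the 8032 genes detected in 20% or more of the cells of each plate (rank 5), of which the median was 0.0167. ANXA2 had rho of 0.319, 0.425, 0.458 and 0.458, with the lowest value in low-resolution replicate 1, and a mean of 0.415 ± 0.0659. A gene was counted as following the score when its rho was 0.3 or more, or -0.3 or less, in each of the 4 plates, as 5.20% of the 8032 genes did, 2.50% upward and 2.70% downward. By this count ANXA5 and ANXA2 followed upward.

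ANXA11 followed the score downward. Its rho was -0.454, -0.488, -0.357 and -0.393 in the 4 plates, with a mean of -0.423 ± 0.0588, and 1.99% of genes had a lower mean. ANXA1 had rho below 0 in 4 of 4 plates, at -0.230, -0.209, -0.158 and -0.182 (mean -0.195 ± 0.0315), without reaching the size of 0.3 in any plate. ANXA1 was therefore not a follower of the score, and 8.06% of genes had a lower mean rho. ANXA3 was also below 0 in every plate (-0.210 to -0.0749), and ANXA6 was above 0 in every plate (0.0922 to 0.225, mean 0.173). The mean of ANXA6 was 0.110 at 10000 UMIs per cell. It was 0.0399 with the cell cycle regressed out of the log levels, but 0.177 with the ranks of the S and G2/M scores taken out. Most cells had no ANXA6 UMI, and regression orders such cells by their cell cycle scores, so the value of 0.0399 cannot be read as a part of the cell cycle. ANXA4 (mean 0.0326) and ANXA7 (mean 0.0177) had both signs among the plates. The 3 members that followed the score did so too with the z-score of the lists in place of the enrichment score and with the score fitted on each plate alone, but with every cell thinned to 10000 UMIs only ANXA5 reached 0.3 in all plates, at a mean of 0.664, against 0.346 for ANXA2 and -0.355 for ANXA11.

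**Figure D2:**
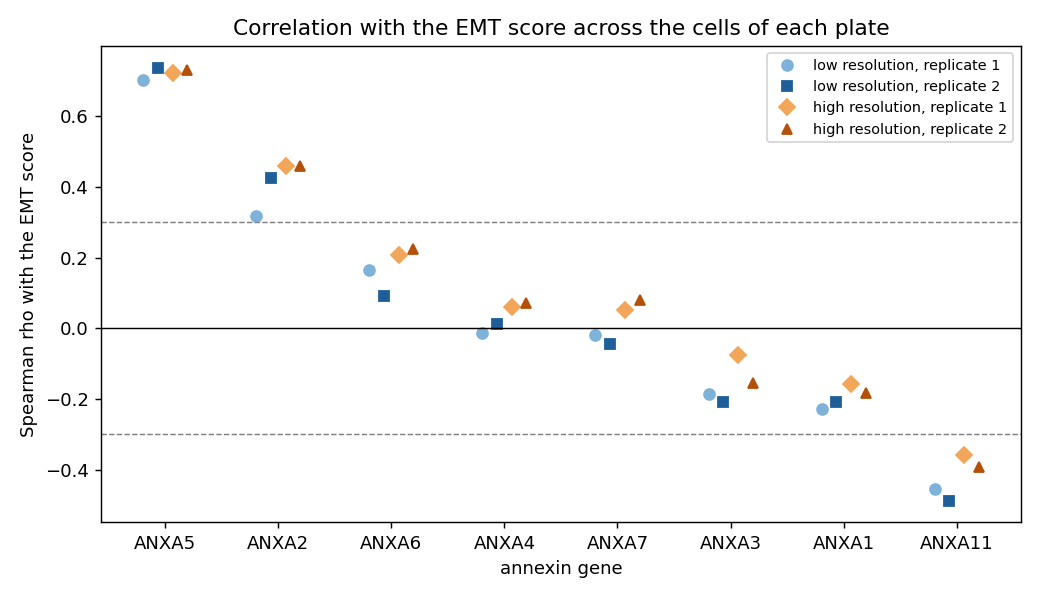
Spearman rho of each annexin with the EMT score across the cells of a plate, with 1 point per plate and dashed lines at a size of 0.3. ANXA5 (0.702 to 0.738) and ANXA2 (0.319 to 0.458) lie above the upper line in all 4 plates and ANXA11 (-0.488 to -0.357) below the lower one, while ANXA1 (-0.230 to -0.158) stays between the lines.

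Other properties of the cells moved with the same genes. The EMT score itself had a rho of -0.475 to -0.299 with the mitochondrial share of counts and of 0.115 to 0.272 with the G2/M score. ANXA5 and ANXA2 were lower in cells with a high mitochondrial share (mean rho -0.487 and -0.457) and higher with the G2/M score (0.332 and 0.209), while ANXA11 was lower with it (-0.243). ANXA1, ANXA2 and ANXA3 were higher in cells with more counts, at mean rho of 0.266, 0.275 and 0.282, as against 0.136 for ANXA5. With the ranks of mitochondrial share and total counts taken out, the mean rho with the score was 0.681 for ANXA5, 0.329 for ANXA2, -0.418 for ANXA11, -0.224 for ANXA1 and -0.224 for ANXA3. With the S and G2/M scores taken out in the same way it was 0.714, 0.392, -0.397, -0.209 and -0.192. Both of these corrections were chosen after the data had been seen.

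Cells were then split by score into 3 bins of equal size within each plate. ANXA5 averaged 5.11 ± 1.42 counts per 10000 in the lowest bin, 9.77 ± 3.78 in the middle bin and 14.1 ± 3.34 in the highest bin (SD, n = 4 plates), a ratio of highest to lowest of 2.79 ± 0.155. In low-resolution replicate 1 the bins were 4.12, 6.69 and 11.4, in low-resolution replicate 2 3.70, 6.36 and 11.1, in high-resolution replicate 1 6.58, 13.6 and 17.7 and in high-resolution replicate 2 6.05, 12.4 and 16.3. The level of ANXA5 thus stood higher at each step in 4 of 4 plates. ANXA2 averaged 21.1 ± 2.74, 24.9 ± 4.57 and 30.8 ± 4.39, with a ratio of 1.45 ± 0.0806 and each step upward in 4 of 4 plates. ANXA11 averaged 2.87 ± 0.226, 2.02 ± 0.407 and 1.62 ± 0.126, and its ratio of 0.566 ± 0.0113 was nearly the same in every plate. ANXA1 averaged 6.46 ± 0.952, 5.24 ± 1.06 and 4.71 ± 0.559, with a ratio of 0.732 ± 0.0634 and the highest bin below the lowest in 4 of 4 plates.

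The remaining members gave a mixed picture along the score. ANXA3 averaged 1.47 ± 0.398, 1.58 ± 0.423 and 1.04 ± 0.404 counts per 10000 in the 3 bins, and its highest bin lay below its lowest in 4 of 4 plates, although the plate means of these bins overlapped between plates. The middle bin of ANXA3 was above both others in both plates numbered replicate 2 and lay between them in both plates numbered replicate 1. ANXA4 (0.849 and 0.842 in the lowest and highest bin) and ANXA7 (0.738 and 0.772) differed by less than the spread between plates. ANXA6 averaged 0.00608 ± 0.00334 in the lowest bin and 0.0400 ± 0.0203 in the highest, from few UMIs. Over all 8032 genes, the plate means of the highest bin lay above those of the lowest bin without overlap for 18.8% and below them without overlap for 13.1%, so that separated bins were common in these data. With 5 bins per plate, ANXA5 stood higher at each step in 4 of 4 plates, whereas ANXA1 was highest in the bin of lowest score in 4 of 4 plates and then varied from bin to bin: in high-resolution replicate 1 it was at 6.12, 4.07, 3.60, 4.04 and 3.64 counts per 10000.

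**Figure D3:**
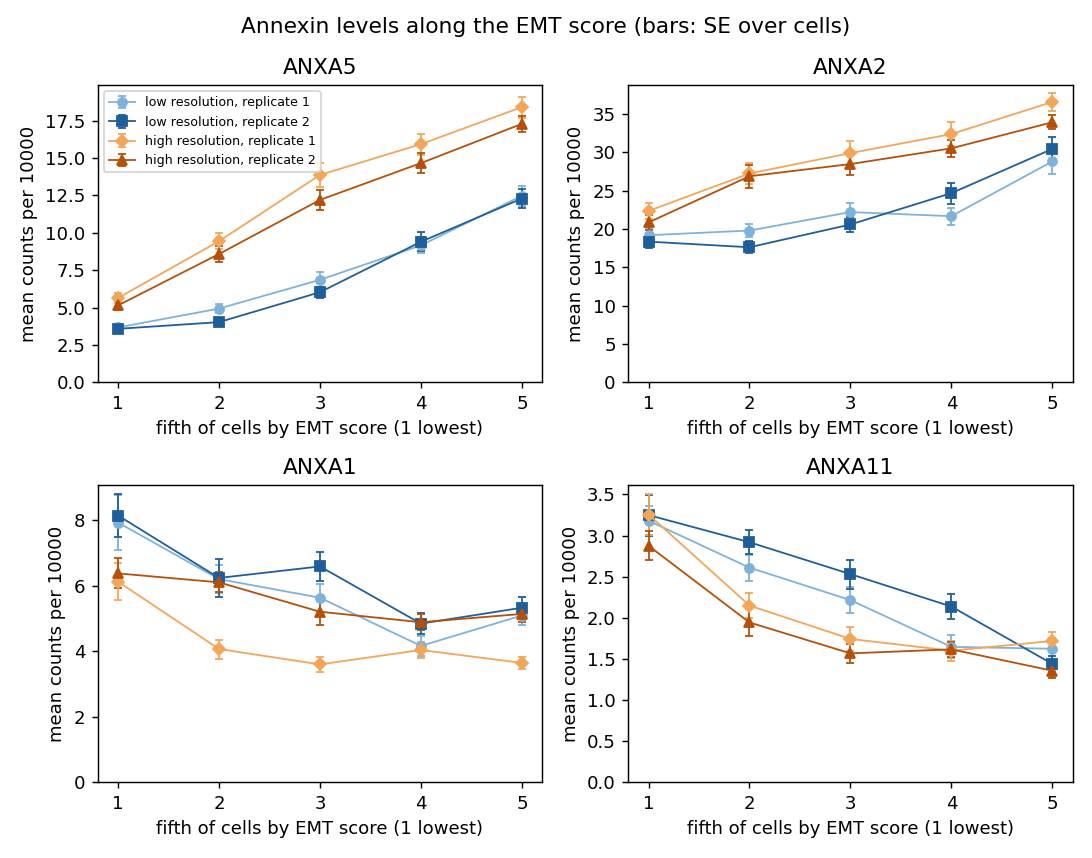
Mean counts per 10000 of ANXA5, ANXA2, ANXA1 and ANXA11 in 5 bins of the cells of a plate by EMT score (1 lowest, 5 highest), with 1 line per plate and bars for the SE over cells. ANXA5 is higher at each step in all plates, from 3.58 to 5.65 in the first bin to 12.3 to 18.4 in the last, and ANXA11 goes from 2.88 to 3.26 down to 1.36 to 1.72.

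With each of 5 single EMT markers, ANXA5 had the largest rho of the 8 members in size. These markers are part of the score, CDH1 and EPCAM through the epithelial list and VIM, FN1 and SNAI2 through the mesenchymal list. Their values here and below are therefore not independent of the score. ANXA5 had a mean rho of -0.531 with CDH1 (E-cadherin) and -0.451 with EPCAM, both epithelial adhesion molecules, of 0.533 with VIM (vimentin, an intermediate filament), 0.520 with FN1 (fibronectin) and 0.536 with SNAI2 (an EMT transcription factor). ANXA2 had -0.252 and -0.216 with CDH1 and EPCAM and 0.409, 0.240 and 0.390 with VIM, FN1 and SNAI2. ANXA11 had the opposite signs throughout, at 0.288, 0.261, -0.246, -0.331 and -0.279. ANXA1 was on the epithelial side with CDH1 (0.188), EPCAM (0.227) and FN1 (-0.250), but its rho with VIM (-0.0296) and SNAI2 (-0.0528) had both signs among the plates. ANXA3 behaved like ANXA1, at 0.269 with CDH1, 0.327 with EPCAM and -0.245 with FN1, and at -0.0546 with VIM and -0.0118 with SNAI2. These cells share a plate and a range of depths, and cells of different plates were not pooled.

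ANXA5 and ANXA1 had been chosen as opposed genes, and across single cells they were not opposed. Their rho was 0.0219 and -0.0451 at low resolution and 0.0355 and 0.0503 at high resolution, with a mean of 0.0157 ± 0.0422 (SD, n = 4 plates). Of 8031 other genes, 39.3% had a lower mean rho with ANXA5 than ANXA1 did. With the ranks of the EMT score taken out, the mean rho of the pair was 0.230 (0.165 to 0.274), above 0 in 4 of 4 plates. With mitochondrial share and total counts taken out instead, a correction added later, it was -0.0571, and with mitochondrial counts left out of the cell total it was -0.0429.

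Splitting each plate at the median of both genes gave 4 classes of nearly equal size. Cells above the median for ANXA5 and not for ANXA1 made up 24.9% ± 0.987, the reverse class 24.9% ± 0.987, cells above for both 24.9% ± 0.990 and cells above for neither 25.3% ± 0.984. A median split makes the classes above for a single gene equal in size, so these shares only restate the rho near 0. The median EMT score was 0.664 ± 0.0673 in the class with ANXA5 alone, 0.509 ± 0.0822 with both, -0.350 ± 0.102 with neither and -0.559 ± 0.0781 with ANXA1 alone. Both classes above the median of ANXA5 thus had scores above 0 and both others below 0. FN1 averaged 14.9 ± 3.89 counts per 10000 with ANXA5 alone, 6.39 ± 1.94 with both, 6.35 ± 3.86 with neither and 1.48 ± 0.491 with ANXA1 alone. VIM averaged 1.91 ± 1.13 and 2.06 ± 0.735 in the classes above the median for ANXA5 and 0.239 ± 0.146 and 0.179 ± 0.146 in the others. Of the UMIs of ANXA5 and ANXA1 together, ANXA5 held 55.9% and 52.4% at low resolution and 73.3% and 67.4% at high resolution. By bin of the EMT score its share was 43.3% ± 10.1, 63.9% ± 13 and 74.5% ± 6.03. Within the lowest bin the share was 36.8% and 32.8% at low resolution and 53.9% and 49.7% at high resolution.

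The most opposed pair of the 28 was ANXA5 with ANXA11. Their rho was -0.349 and -0.443 at low resolution and -0.331 and -0.435 at high resolution (mean -0.390 ± 0.0578), and it was -0.280 at 10000 UMIs per cell. ANXA2 with ANXA11 was below 0 in every plate as well (mean -0.221, from -0.377 to -0.0432). At the other end, ANXA2 and ANXA5 had rho of 0.50, 0.539, 0.660 and 0.707 (mean 0.602 ± 0.0976), both high-resolution plates being above both low-resolution plates. ANXA1, ANXA2 and ANXA3 were linked to each other, at 0.267 for ANXA1 with ANXA2, 0.268 for ANXA1 with ANXA3 and 0.324 for ANXA2 with ANXA3. Of all pairs, 11 were above 0 in 4 of 4 plates, 3 were below 0 in 4 of 4 plates and 14 had mixed signs. With the EMT score taken out, ANXA5 with ANXA11 stood at -0.135 and ANXA2 with ANXA5 at 0.482, while ANXA1 with ANXA2 stood at 0.389 and ANXA3 with ANXA5 at 0.354 (0.128 without this correction). With mitochondrial share and total counts taken out instead, ANXA3 with ANXA5 stood at 0.0245, with both signs among the plates. ANXA5 with ANXA11 then stood at -0.369 and ANXA2 with ANXA5 at 0.479. ANXA1 with ANXA2 stood at 0.207, ANXA1 with ANXA3 at 0.199 and ANXA2 with ANXA3 at 0.230.

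**Figure D4:**
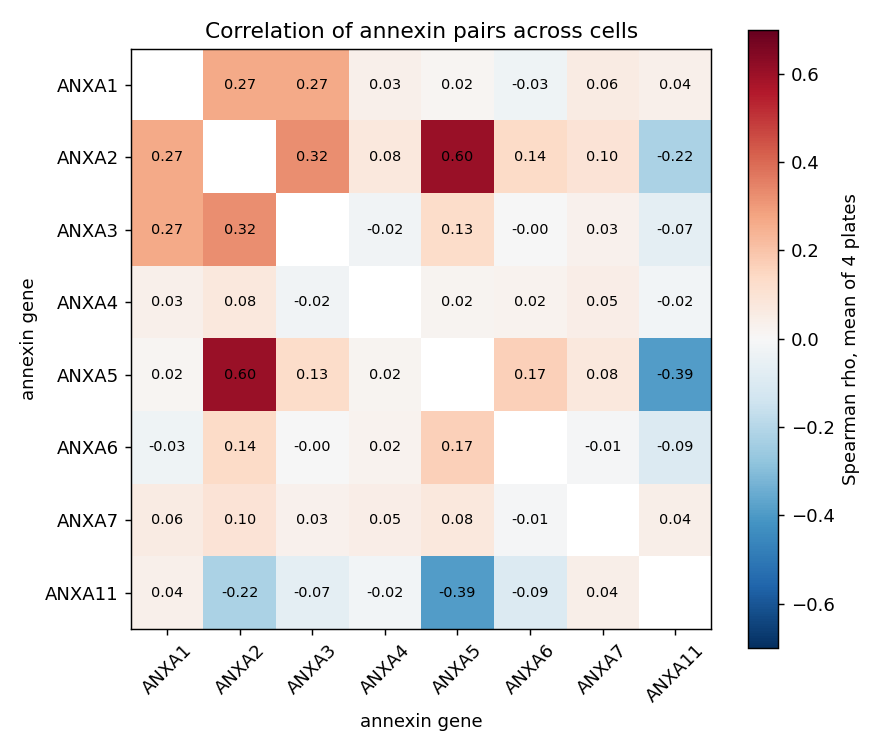
Spearman rho of all pairs of the 8 annexins across cells, as the mean of 4 plates (red above 0, blue below 0). The strongest squares are ANXA2 with ANXA5 (0.602) and ANXA5 with ANXA11 (-0.390), and the square of ANXA5 with ANXA1 (0.0157) is near white.

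The genes most like ANXA5 across cells were not annexins. The highest mean rho with ANXA5 over the 4 plates were those of MT2A, a metallothionein (0.763), EMP3, a membrane protein in the mesenchymal list (0.721), NT5E, the ecto-5′-nucleotidase CD73 (0.715), LGALS1, galectin-1 (0.703), and FLNA, filamin A (0.682). The lowest were those of FXYD3, a regulator of the sodium pump (-0.726), SLPI, a secreted protease inhibitor (-0.690), AZGP1 (-0.670), CLDN7, a claudin of tight junctions in the epithelial list (-0.668), and HSD11B2, which inactivates cortisol (-0.656). The likeness of ANXA1 to any gene was weaker. Its highest were MAL2, a protein of apical transport (0.319), TM4SF1 (0.292), YWHAZ (0.274) and SFN (0.272), both 14-3-3 proteins, and ANXA3 (0.268). Its lowest were FBLN1, a matrix protein of the mesenchymal list (-0.285), C3, a complement component (-0.274), PSAP (-0.266), TNS3 (-0.258) and NEAT1 (-0.255). For ANXA11, looked up after its values had been seen, LGALS3 (galectin-3) was highest at 0.452, and ANXA5 was the lowest but for TGFBI and MT2A (-0.390, against -0.441 and -0.418).

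Of the known protein partners, S100A10 went with its annexin. Its rho with ANXA2 was 0.610 on average (0.50 to 0.693), and 99.9% of genes had a lower mean rho with ANXA2. Genes outside the partner list stood above it: CFL1 (0.670), PFN1 (0.664), TMSB10 (0.637), LGALS1 (0.626) and PPIA (0.615). The other partner pairs had smaller values. ANXA11 with S100A6 was at 0.113, above 0 in 4 of 4 plates, with 91.3% of genes lower, whereas S100A6 was below 0 in 4 of 4 plates with ANXA2 (-0.138, 7.35% of genes lower) and with ANXA5 (-0.0821, 16% lower). ANXA1 with S100A11 was at 0.0589 (69.3% lower), ANXA11 with PDCD6 at 0.0141 (67.2% lower) and ANXA7 with SRI (sorcin) at 0.0455 (80.4% lower). ANXA1 is known to be induced through the glucocorticoid receptor, and the medium of all cells held hydrocortisone. Its rho was below 0 in 4 of 4 plates with the receptor NR3C1 (-0.0707, 6.39% of genes lower). The same held for TSC22D3 (-0.133, 1.37% lower) and FKBP5 (-0.163, 0.610% lower), both known targets of the receptor. The rho of ANXA1 with other targets of the receptor is not given here. Low values with FKBP5 were not particular to ANXA1, since ANXA3 had a mean rho of -0.396 with it.

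In 4 lists of related genes, 1 gene or none followed the EMT score, beside 2.50% of all 8032 genes upward and 2.70% downward. Of 8 measured S100 and EF-hand partners 1 followed it upward (S100A10, mean rho 0.441), of 12 membrane repair genes 1 (CAV1, caveolin-1, 0.558, itself in the mesenchymal list) and of 9 genes of ANXA1 signalling 1 (FPR1, a formyl peptide receptor that ANXA1 binds, 0.408). None of 7 genes of phosphatidylserine exposure followed it, and no gene of these lists followed it downward. The median rho was 0.0346 for the S100 partners, -0.0151 for membrane repair, 0.0315 for ANXA1 signalling and -0.0357 for phosphatidylserine exposure, beside 0.0167 over all 8032 genes.

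The second question was whether the annexins differed between the patches of the 2 phototagging schemes. The counts of all cells of a plate were added up and compared with edgeR, with the plate as the replicate (n = 2 against 2), and 12.4% of 12437 genes passed an adjusted p of 0.05, 6.26% higher and 6.18% lower in the high-resolution plates. Of the 8 annexins 3 passed, and all 3 rose: ANXA5 by a log2 fold change of 0.76 ± 0.10 (SE, adjusted p = 0.00082), ANXA3 by 0.75 ± 0.11 (adjusted p = 0.00116) and ANXA2 by 0.40 ± 0.10 (adjusted p = 0.026). ANXA5 and ANXA3 also passed without any single plate (adjusted p at most 0.00677 and 0.00718). ANXA2 did not pass in any fit that left out 1 plate (adjusted p 0.114 without low-resolution replicate 1, 0.0597 without low-resolution replicate 2, 0.0880 without high-resolution replicate 1 and 0.0628 without high-resolution replicate 2). ANXA6 was higher by 1.30 ± 0.40 at 9, 15, 39 and 33 UMIs per plate and did not pass (adjusted p = 0.0521). ANXA1 (-0.25 ± 0.12, adjusted p = 0.211), ANXA11 (-0.22 ± 0.12, adjusted p = 0.267), ANXA4 (0.19 ± 0.12, adjusted p = 0.318) and ANXA7 (0.07 ± 0.11, adjusted p = 0.719) did not pass either.

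The plates also differed in their cells. With 1 EMT score fitted over the cells of all 4 plates, 26.1% and 21.8% of the cells of the low-resolution plates fell in the highest of 3 bins of equal size, against 43.6% and 41% in the high-resolution plates. In edgeR the EMT markers FN1 (log2 fold change 0.77), SNAI2 (1.36) and VIM (0.94) rose in the high-resolution plates and CDH1 (-0.68) fell, all with an adjusted p of at most 0.00321, while EPCAM did not pass (-0.11, adjusted p = 0.566). Summed levels of mammary cell type markers moved with the groups too. Over 11 basal markers the sum was 49.3 and 47.6 counts per 10000 at low resolution and 67.4 and 69.3 at high resolution. Over 6 luminal markers it was 2.88 and 3.49 against 6.49 and 9.23, also without overlap. Such a sum can rest on a few abundant genes. FOXA1 was detected in 20% or more of the cells of every plate but high-resolution replicate 1. PGR had no counts in any plate but that one. The part of these marker sums in the differences of ANXA5, ANXA3 and ANXA2 was not tested. The number of outer, middle and inner cells on each plate was not analysed here, so more cells of a region and more transcript per cell cannot be told apart in the plate sums. The low-resolution plates had spike-in shares of 1.28% and 1.38% and the high-resolution plates of 0.833% and 0.989%, and the part of this in the result was not tested.

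Within 3 bins of the joint score, a comparison added after the data had been seen, the difference of ANXA5 was smaller but kept its direction. Each bin spans a range of scores, and the scores of the 2 groups within a bin are not given here. Cells of the same bin may therefore still differ in score between the groups. In the lowest bin ANXA5 was at 4.33 and 4.09 counts per 10000 at low resolution and 5.76 and 5.27 at high resolution. In the middle bin it was at 7.47 and 8.0 against 11.8 and 10.8, and in the highest bin at 11.9 and 12.4 against 17 and 15.7. The plates of the groups did not overlap in any bin, but with 2 plates per group the share of all genes that separate like this is not given here. In edgeR the log2 fold change was 0.44 ± 0.11 (SE, adjusted p = 0.0748), 0.62 ± 0.13 (adjusted p = 0.0116) and 0.38 ± 0.12 (adjusted p = 0.171), where 0.973%, 3.78% and 0.882% of genes passed in the 3 bins. ANXA3 was at 1.23 and 1.20 against 1.63 and 1.66 in the lowest bin, at 0.981 and 1.17 against 1.95 and 2.35 in the middle bin and at 0.825 and 0.528 against 1.41 and 1.22 in the highest bin. Its log2 fold change was 0.54 ± 0.12 (adjusted p = 0.0608), 1.02 ± 0.15 (adjusted p = 0.00111) and 0.80 ± 0.22 (adjusted p = 0.141). For ANXA2 it was 0.28, 0.40 and 0.16, with no bin passing (adjusted p 0.163, 0.0793 and 0.588), and for ANXA1 -0.15, -0.05 and -0.27, with no bin passing either. ANXA7 (-0.06, 0.08 and 0.15) and ANXA11 (0.03, -0.20 and 0.08) had both signs among the bins, and none of these passed.

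**Figure D5:**
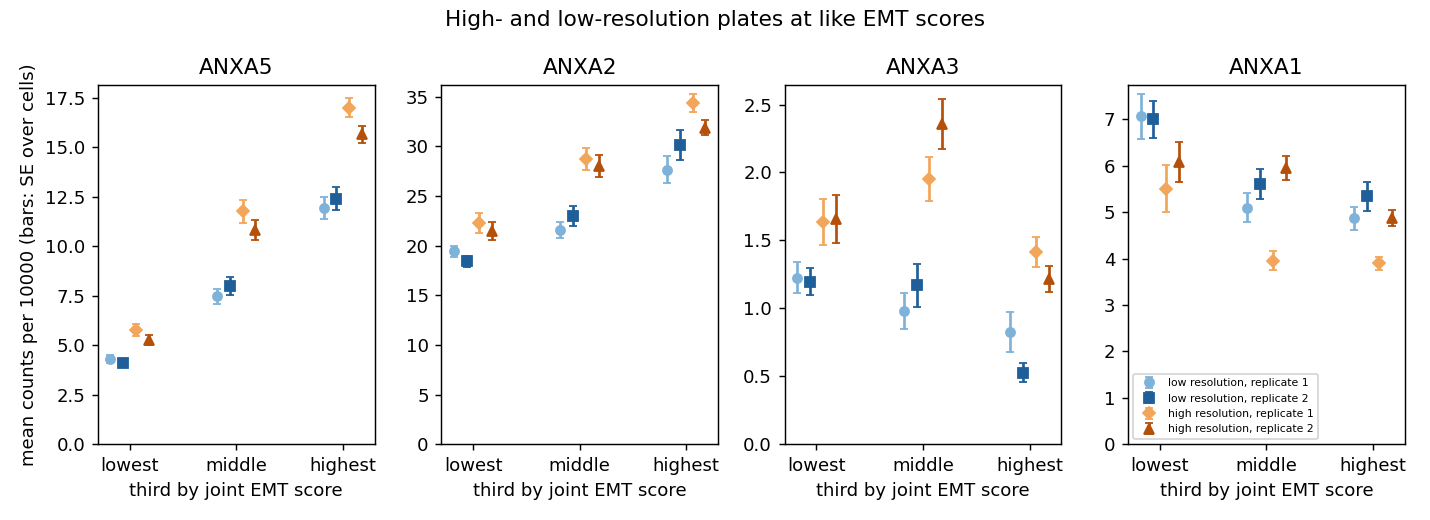
Mean counts per 10000 of ANXA5, ANXA2, ANXA3 and ANXA1 in 3 bins of all cells by an EMT score fitted over the 4 plates together, with 1 point per plate and bars for the SE over the cells of that plate. ANXA5, ANXA2 and ANXA3 lie higher in both high-resolution plates than in both low-resolution plates in each bin, whereas the plates overlap or lie the other way for ANXA1.

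Among genes of the surface plasmin system to which ANXA2 belongs, PLAT (log2 fold change 1.76) and PLAU (1.61), the plasminogen activators, the urokinase receptor PLAUR (0.72) and S100A10 (0.40) rose in the high-resolution plates, with adjusted p of 0.00572, 0.000664, 0.0418 and 0.0321. In the other lists the counts stand beside the 6.26% of all genes tested that rose and the 6.18% that fell. Of 9 S100 and EF-hand partners tested S100A10 rose, and S100A8 (-1.54, adjusted p = 0.00293) and S100A9 (-0.73, adjusted p = 0.0474), the subunits of calprotectin, fell. Of 13 membrane repair genes EHD2 rose (0.49, adjusted p = 0.016) and AHNAK fell (-0.45, adjusted p = 0.0445). Of 10 genes of ANXA1 signalling TSC22D3 (-0.91, adjusted p = 0.000935) and ZBTB16 (-0.93, adjusted p = 0.00493), both known glucocorticoid targets, fell and none rose, and ANXA1 itself, which is also one, did not pass. FKBP5, another such target (-0.22, adjusted p = 0.181), and DUSP1 (0.19, adjusted p = 0.571) and PER1 (0.11, adjusted p = 0.765) of the same list did not pass either and had both signs. Of 8 genes of phosphatidylserine exposure ATP8B1, a lipid flippase, fell (-0.81, adjusted p = 0.0077) and none rose. The median log2 fold change was between -0.21 and -0.04 for the S100, membrane repair, ANXA1 signalling and phosphatidylserine lists, beside -0.02 over all genes tested.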

How the data were processed

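Single MCF10A cells from 4 patches (2 per phototagging scheme) were sequenced by SORT-seq with UMIs. The authors deposited expected counts per gene and well, that is, distinct UMIs corrected for repeated draws from 4096 sequences, without scaling. Per the labels, STAR 2.7.3a, Seurat 4 and hg38 were used. File names place low-resolution replicate 1 on another flow cell than the other 3 plates. Kept were cells of 2000 to 9000 features whose mitochondrial share was below 40%, log-normalized to 10000 per cell without spike-ins. Doublets were not called. The EMT score was computed with an own implementation of GSVA per experiment (Python 3.11.15, scipy 1.17.1), cell cycle scores with Seurat 5.3.0. Spearman rho was computed within plates, with no p-values. Plate sums of the expected counts were rounded and tested with edgeR 4.0.16 (quasi-likelihood, TMM, filterByExpr, Benjamini-Hochberg over all genes), with DESeq2 1.42.0 as an alternative. The SE of an edgeR log2 fold change was derived as its size divided by the square root of the F statistic. Scripts were tested on simulated data. With 200 genes changed by a factor of 2, edgeR recovered 79.5% of them at a dispersion of 0.01 and 12.5% at 0.05. A gene that did not pass may therefore still differ. The members, lists and tests were chosen with earlier results of these data known. Named were all 8 annexins, 5 EMT markers, the 5 genes at either end of the mean rho with ANXA5 and with ANXA1, and list genes that followed the score or passed edgeR. Known partners, glucocorticoid receptor genes, single cell type markers and the genes most like ANXA2 and ANXA11 were named after their values were seen. Alternatives covered scaling, filters, depth, the score, the cell cycle, the replicate block and each plate left out. Replicates are separate patches of 1 cell line. Results for 1 list gene, and the counts and median of its list, are not reported here.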

Additional observations from a re-analysis of the deposited data

Results flagged for a closer look

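ANXA7 stood out because its rho with the EMT score had opposite signs in the plates of the 2 schemes: -0.0183 and -0.0437 at low resolution and 0.0524 and 0.0803 at high resolution, a difference of 0.0974. The difference was not tested, and all 4 values are small. Of the 8 members and 28 pairs looked at in this way it was the only one. With 2 plates per group, single plates could not be examined as outliers.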

How the results depend on the processing

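ANXA5 followed the EMT score under every alternative tried. The number of annexins that followed it (3) was 1 at 10000 UMIs per cell and 1 at a limit of 0.4, 2 without the mitochondrial limit, with mitochondrial counts left out or with the cell cycle regressed out, each time without ANXA2, and 3 with any 1 plate left out. The mean rho of ANXA5 with ANXA1 (0.0157) was 0.0786 without the mitochondrial limit, -0.0429 with mitochondrial counts left out, 0.230 with the EMT score taken out, -0.0571 with mitochondrial share and total counts taken out, and 0.00410 to 0.0359 with a plate left out. The summed annexin level (45.9 counts per 10000) was 65 with mitochondrial counts left out of the cell total, by construction. Between the groups, 1547 genes passed edgeR, 1050 DESeq2, 986 at 10000 UMIs per cell and 982 to 1172 with a plate left out (982 without low-resolution replicate 1, which leaves 1 flow cell, and 987 without high-resolution replicate 2; the lone plate is assumed to vary like the other group). Of the genes tested, 12.4% passed, and 0.973%, 3.78% and 0.882% within the low, middle and high bin of the joint score, each with fewer cells. ANXA7 and ANXA11, which did not pass, changed sign: ANXA7 was at -0.045 at 10000 UMIs per cell and -0.055 in the low bin, ANXA11 at 0.032 in the low and 0.079 in the high bin. ANXA5, ANXA3 and ANXA2 passed in all fits on all cells of the 4 plates. The numbers of the replicates do not pair the plates (correlation of deviations -0.0239); with the replicate block 2023 genes passed, ANXA6 among them (adjusted p = 0.026), as without a filter on low counts (0.00888; 2146 genes). Depth limits ANXA6, with 9 to 39 UMIs per plate.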
